A study of Homo sapiens with 19 samples.

Results

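Expression of 10 genes of the nuclear envelope and of abundant chromatin proteins was followed in neuroblastoma cells during and after a pulse of doxorubicin. The genes were the lamins LMNB1, LMNB2 and LMNA and the inner nuclear membrane proteins LBR, TMPO, EMD, SUN1 and SUN2. The high-mobility-group proteins HMGB1 and HMGB2 made up the rest. They were taken by symbol from the 23367 genes of the read count table. All 10 were present and passed the filter on low counts, with 142 to 25049 reads in a library.

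The cells were SHEP TET21N, an established human neuroblastoma line that carries a MYCN transgene switched off by doxycycline. MYCN-high cells were grown without doxycycline and MYCN-low cells with it, so all MYCN-low cultures also held the antibiotic, whose own effects cannot be told apart from those of MYCN. Each state was sampled at 5 points: without drug, at the end of 72 h of doxorubicin at 0.1 µg/ml, and 3, 8 and 14 days following its washout. The 10 groups held 19 libraries, biological duplicates lettered B and C, except that MYCN-low cells at 14 days had replicate B alone. Each state had a single untreated group, so time in culture cannot be told apart from time since the drug. All cells derive from 1 line, and p-values measure only the spread between these samples.

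Lamins form a filament meshwork on the inner face of the nuclear membrane. B-type lamins, encoded by LMNB1 and LMNB2, stay anchored in the membrane by a farnesyl group. Lamin A, a product of LMNA, loses its own on maturation. LBR, the lamin B receptor, and the LEM-domain proteins TMPO (lamina-associated polypeptide 2) and EMD (emerin) tie chromatin and lamins to the inner membrane, and SUN1 and SUN2 connect the lamina to the cytoskeleton through nesprins. HMGB1 and HMGB2 bend DNA in the nucleus, and HMGB1 acts as a danger signal once outside the cell. Loss of lamin B1 and relocation of HMGB1 from the nucleus are widely used as marks of senescent cells.

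Promoter windows are shown for LMNB1 and TMPO, which moved together across the treatment, and for LMNA, which did not. Each window runs from 250 bases before to 50 bases after a RefSeq transcription start on GRCh38.p14, 5′ to 3′, and 8 of the 10 genes had such a window. The LMNB1 window is chr5:126776886-126777185, the TMPO window chr12:98515323-98515622 and the LMNA window chr1:156082323-156082622, all on the plus strand. Capitals mark matches, on either strand, to the CHR motifs TTTGAA and TTCGAA, the E2F motifs TTTCCCGC, TTTGGCGC and TTCCCGCC, the CCAAT box and the E-box CACGTG.
LMNB1: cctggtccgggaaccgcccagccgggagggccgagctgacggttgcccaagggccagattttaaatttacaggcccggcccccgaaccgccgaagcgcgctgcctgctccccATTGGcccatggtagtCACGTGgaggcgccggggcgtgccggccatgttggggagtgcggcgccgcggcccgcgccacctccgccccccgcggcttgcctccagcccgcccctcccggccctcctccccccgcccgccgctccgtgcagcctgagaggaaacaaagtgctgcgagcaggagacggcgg
TMPO: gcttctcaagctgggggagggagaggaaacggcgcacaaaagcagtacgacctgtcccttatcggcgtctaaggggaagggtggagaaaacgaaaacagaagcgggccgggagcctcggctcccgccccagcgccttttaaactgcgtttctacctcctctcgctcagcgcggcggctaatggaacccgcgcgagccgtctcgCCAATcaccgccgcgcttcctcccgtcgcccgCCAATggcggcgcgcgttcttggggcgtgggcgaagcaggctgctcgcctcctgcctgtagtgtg
LMNA: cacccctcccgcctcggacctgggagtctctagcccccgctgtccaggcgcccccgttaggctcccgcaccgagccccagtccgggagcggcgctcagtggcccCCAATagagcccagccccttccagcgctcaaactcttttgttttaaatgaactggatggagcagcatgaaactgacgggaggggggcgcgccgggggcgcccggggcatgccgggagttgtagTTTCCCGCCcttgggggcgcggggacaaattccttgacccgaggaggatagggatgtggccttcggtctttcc
In the LMNB1 window a CCAAT match on the minus strand lay at -138 to -134 from the start, and the E-box, the class of site bound by MYC family proteins, at -122 to -117. The TMPO window held CCAAT at -47 to -43 and at -15 to -11. The LMNA window held CCAAT at -146 to -142 and the overlapping E2F letters TTTCCCGC at -23 to -16 and TTCCCGCC at -22 to -15. Of 35116 human windows of this length, 34.6% held CCAAT, 7.26% the E-box, 4.59% any of the 3 E2F motifs and 16.4% either CHR motif. LMNB1 had 1 further window with no match, TMPO 1 further window that overlaps the one shown and holds the same CCAAT letters, and LMNA 2 further windows with no match. Such matches describe the letters only.

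Total gene counts per library ran from 16530112 to 27638012, and 14793 genes were tested. MYCN stood at 594 to 1416 CPM (read counts scaled to a common library total) in MYCN-high libraries and at 13.5 to 30.7 CPM in MYCN-low libraries, which matches the labels. The mesenchymal markers VIM, FN1, PRRX1 and YAP1 were counted in every library, while of the markers of noradrenergic neuroblastoma PHOX2A had no read in any of the 19 libraries and DBH and TH at most 2, although HAND2 was expressed and ISL1 had 24 to 126 reads. Leukocyte and endothelial markers summed to at most 2.14 and 1.43 CPM. The 4 epithelial markers summed to 183 to 564 CPM in MYCN-high and 252 to 1702 CPM in MYCN-low libraries. KRT18 and KRT8 made up nearly all of these epithelial sums, with EPCAM at most 2.02 CPM and CDH1 at most 4 reads in any library. Of the 9 groups with a pair of libraries, 2 pairs stood apart in ways that touch the results. The untreated MYCN-low libraries differed over 2-fold in 2647 genes, EMD and SUN2 among them, against 1103 to 1664 genes in the other pairs. MYCN-high cells at 72 h had LMNB1, SUN2 and HMGB2 over 2-fold apart, all higher in replicate C, which also held more MYCN (1416 against 633 CPM). The summed CPM of 20 genes of G2 and mitosis was 910 in that replicate C and 274 in replicate B. Whether the MYCN level or the share of dividing cells in that library bears on these genes was not tested. ERCC spike-in RNAs made up 0.0116% to 0.537% of counts, a 46.4-fold range. That share differed within pairs as well. In MYCN-high cells it went from 0.0736% untreated to 0.0116% at 72 h in replicate B. Replicate C held 0.189% and 0.191%. Scaling by the spike-ins moved the median change of all genes against untreated cells from 0.03 to 2.37 log2 units at 72 h in MYCN-high cells, and every value below is therefore relative to the typical gene of a library.

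After 72 h in doxorubicin, transcripts of both B-type lamins, LBR, TMPO, HMGB1 and HMGB2 fell in both MYCN states, and EMD fell in MYCN-low cells as well. LMNA, SUN1 and SUN2 did not pass the test in either state. In MYCN-high cells 6 of the 10 genes were lower and none higher (edgeR's quasi-likelihood test, adjusted p under 0.05 over all tested genes), where 17.9% of all genes tested were lower. In MYCN-low cells 7 of 10 were lower, against 12.1% of all genes. The median log2 fold change of the 10 genes was -1.72 in MYCN-high and -1.58 in MYCN-low cells, beside 0.03 and 0.01 over all genes. With ERCC scaling none of the 10 genes passed the test in either state, and LMNB2 and LBR in MYCN-high cells turned to 0.80 and 0.092. That scaling gave LMNB1, TMPO and HMGB2 changes of -2.38, -1.55 and -2.56 in MYCN-high cells and of -4.01, -2.76 and -3.58 in MYCN-low cells. In bulk RNA, fewer cells with a transcript and less of it per cell cannot be told apart.

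**Figure D1:**
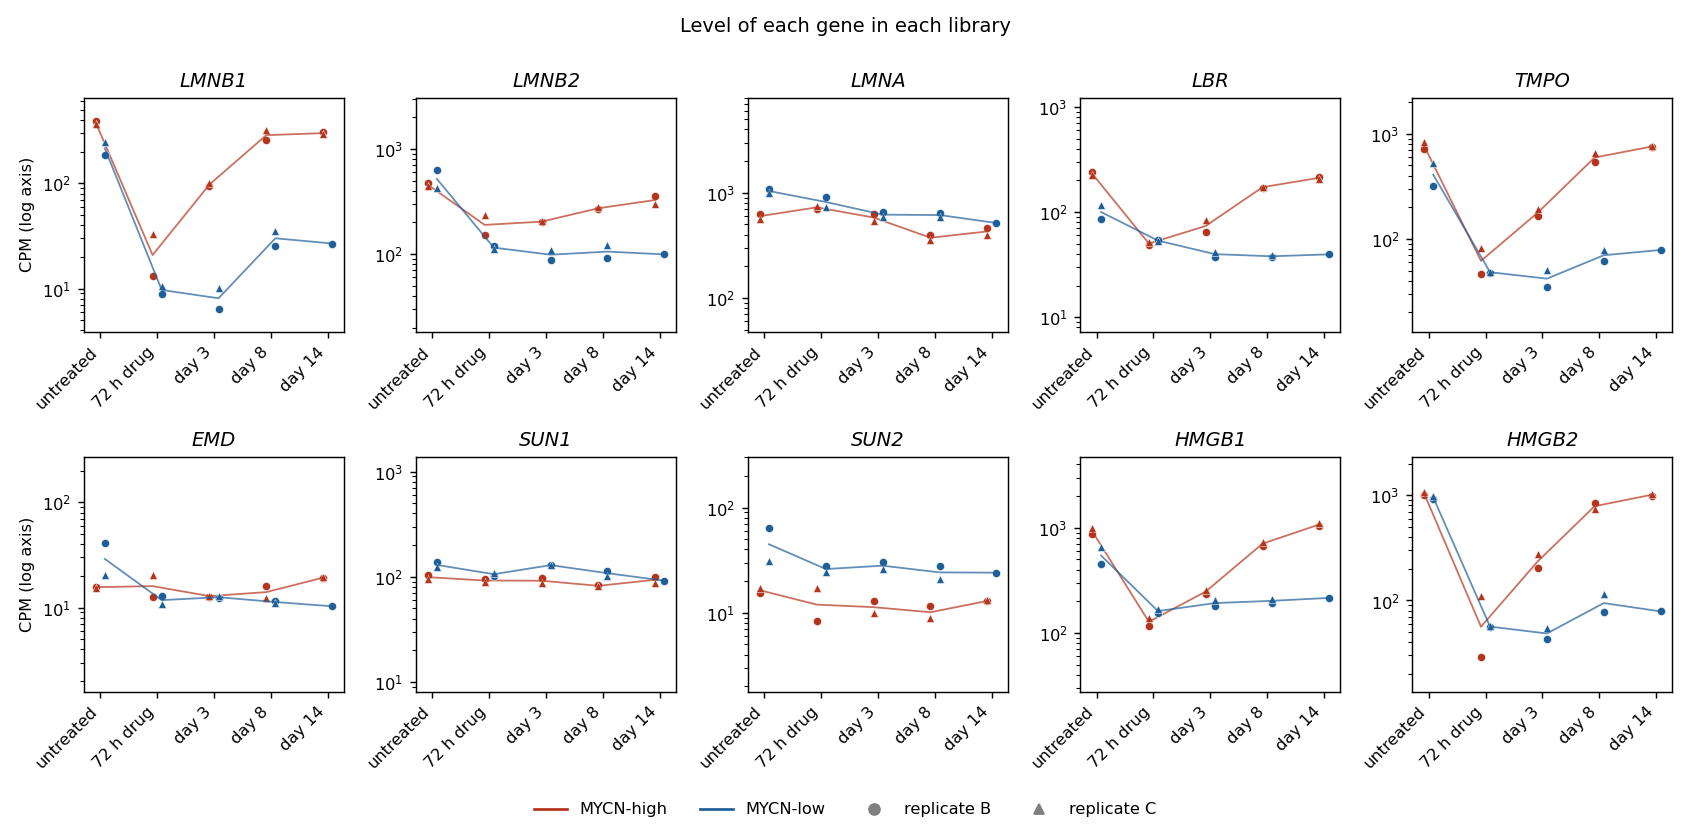
Level of each of the 10 genes in every library, in CPM on a log axis, across the treatment course, with lines through the geometric means of each MYCN state and symbols for replicates B and C. LMNB1, TMPO, LBR, HMGB1 and HMGB2 dropped at 72 h in both states, and 14 days after washout the MYCN-high libraries lay near their untreated levels while the MYCN-low library stayed low.

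LMNB1, which encodes lamin B1, had the largest fitted fall of the 10 genes at 72 h in both states, although in MYCN-high cells without replicate C of 72 h HMGB2 fell further (-5.16 against -4.83). In MYCN-high cells it stood at 392 and 366 CPM untreated and at 13.2 and 32.7 CPM at 72 h, in replicates B and C. The log2 fold change was -4.05 ± 0.35 (± gives the standard error throughout; adjusted p = 1.31e-06), to 6.06% of the untreated mean. In MYCN-low cells LMNB1 went from 186 and 249 CPM to 8.81 and 10.7 CPM, a log2 fold change of -4.48 ± 0.36 (adjusted p = 3.59e-07). The treated and untreated libraries did not overlap in either state. How often libraries were separate over all genes was not counted, so here and below such separation adds no support to the calls. LMNB2, which encodes lamin B2, fell less. It went from 474 and 439 to 151 and 237 CPM in MYCN-high cells (-1.23 ± 0.23, adjusted p = 0.000632) and from 630.4 and 425 to 118 and 112 CPM in MYCN-low cells (-2.20 ± 0.24, adjusted p = 5.7e-06). LMNA, the source of lamins A and C, stood at 633 and 565 CPM in untreated MYCN-high cells and at 701 and 751 CPM at 72 h, a log2 difference of 0.28 ± 0.16 (adjusted p = 0.206). In MYCN-low cells LMNA was at 1076 and 999 CPM untreated and 913 and 729.7 CPM at 72 h (-0.34 ± 0.16, adjusted p = 0.156).

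Among LBR, TMPO and EMD, TMPO fell most at 72 h. Its level went from 709 and 827 to 46.9 and 81.5 CPM in MYCN-high cells (-3.58 ± 0.30, adjusted p = 1e-06) and from 316 and 528 to 47.6 and 48.9 CPM in MYCN-low cells (-3.13 ± 0.29, adjusted p = 1.43e-06). LBR, which also carries a sterol reductase domain, ended at levels that did not differ detectably between the states (-0.09 ± 0.17, adjusted p = 0.72). It went from 239 and 227 to 48.4 and 52.2 CPM in MYCN-high cells (-2.21 ± 0.17, adjusted p = 6.46e-07). In MYCN-low cells, where LBR started lower, it went from 85.7 and 117 to 54.4 and 52.7 CPM (-0.92 ± 0.17, adjusted p = 0.00101). EMD had the fewest reads of the 3. Its MYCN-high libraries overlapped, with 15.8 and 15.4 CPM untreated and 12.5 and 20.5 CPM at 72 h. In MYCN-low cells EMD went from 41.5 and 20.3 to 12.8 and 10.9 CPM (-1.38 ± 0.29, adjusted p = 0.00298). The untreated MYCN-low replicate B carried much of that fall, and without it the change was -0.78 (adjusted p = 0.0483).

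SUN1 and SUN2, of the linker between lamina and cytoskeleton, did not pass the test at 72 h. SUN1 was at 103 and 95.2 CPM untreated and 96.2 and 88.3 CPM at 72 h in MYCN-high cells, a log2 difference of -0.11 ± 0.14 (adjusted p = 0.578). In MYCN-low cells SUN1 was at 137 and 123 CPM before and 102 and 109.6 CPM at 72 h (-0.29 ± 0.14, adjusted p = 0.135). SUN2 was at 15.6 and 17.2 CPM before and 8.31 and 17.2 CPM at 72 h in MYCN-high cells, where the libraries overlapped. In MYCN-low cells SUN2 stood at 64.3 and 31.1 CPM before and 27.9 and 24.3 CPM at 72 h (-0.87 ± 0.33, adjusted p = 0.0699). That value passed the threshold in DESeq2's Wald test, without the filter on low counts, and without untreated replicate C, and was -0.25 without untreated replicate B.

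HMGB2 and HMGB1, the paired chromatin proteins, both fell at 72 h. HMGB2 went from 1006 and 1078 to 29.0 and 109 CPM in MYCN-high cells, a log2 fold change of -3.91 ± 0.43 (adjusted p = 7.01e-06). The 2 treated libraries differed 3.77-fold, and the change was -5.16 without replicate C and -3.25 without replicate B. In MYCN-low cells HMGB2 went from 920.1 and 995 to 55.5 and 57.4 CPM (-4.08 ± 0.44, adjusted p = 5.36e-06). HMGB1 went from 873 and 994 to 117 and 139 CPM in MYCN-high cells (-2.87 ± 0.19, adjusted p = 4.9e-07) and from 449 and 659 to 154 and 169 CPM in MYCN-low cells (-1.78 ± 0.19, adjusted p = 4.17e-06). Treated libraries lay below all untreated ones for both genes in both states. RefSeq names 50 pseudogenes of HMGB1, 1 of HMGB2 and 2 of TMPO, none of them in the count table, and how reads shared with such copies were counted is not given in the sources used here. TMPO also overlaps the antisense gene TMPO-AS1 and SUN2 overlaps GTPBP1, and with no strand setting given, their reads may not be separable.

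In MYCN-high cells the fallen transcripts came back after the drug was removed. At 3 days 6 of the 10 genes (both B-type lamins, LBR, TMPO and both HMGB genes) were still below untreated cells, against 15.7% of all genes lower. At 8 days 1 of 10 was lower, against 4.09% of all genes. At 14 days none was called, where 0% of all 14793 genes passed edgeR's adjusted threshold. At an unadjusted p under 0.05 that day-14 comparison held 1 of the 10 genes and 1245 of all genes, and DESeq2's Wald test called none of the 10 and 57 genes in all. The median log2 fold change of the 10 genes was -1.41, -0.40 and -0.11 at the 3 times, beside 0.02, 0.02 and -0.01 over all genes. Measured against 72 h instead, 6 of 10 genes were higher at 14 days and LMNA was lower, where 17.3% of all genes were higher and 18.3% lower.

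LMNB1 in MYCN-high cells climbed to 93.4 and 102 CPM at 3 days (-1.96 ± 0.32 against untreated, adjusted p = 0.000361). It reached 258 and 319 CPM at 8 days and 306 and 294 CPM at 14 days, 79.2% of the untreated mean. At 14 days it was 3.71 ± 0.34 log2 units above 72 h (adjusted p = 2.11e-06). TMPO followed a like course, with 166 and 191 CPM at 3 days, 533 and 662 at 8 days and 744 and 764 at 14 days, when it stood at 98.2% of the untreated mean. HMGB2 was at 203 and 275 CPM at 3 days, 844 and 736 at 8 days and 982 and 1039 at 14 days. For all 3 genes the day-3 libraries lay above the 72 h libraries and below the untreated ones, an order whose share over all genes was not counted. LBR rose from 64.2 and 84.9 CPM at 3 days to 170.0 and 175 at 8 days and 218 and 207 at 14 days (2.08 ± 0.17 above 72 h, adjusted p = 1.02e-06). HMGB1 was at 237 and 258 CPM at 3 days, 676 and 738 at 8 days and 1042 and 1109 at 14 days. Its 14-day libraries lay above both untreated ones, a difference of 0.20 ± 0.18 that did not pass the test (adjusted p = 0.804).

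LMNB2 had fallen least of the 6 transcripts in MYCN-high cells, and by 8 and 14 days it had the lowest share of its untreated mean among them. It stood at 200.2 and 206 CPM at 3 days, 265 and 279 at 8 days and 356 and 299 at 14 days, 71.8% of the untreated mean. The day-8 difference from untreated cells was -0.74 ± 0.23 (adjusted p = 0.0542), and 4 alternatives moved it past the threshold. Its rise from 72 h to 14 days, 0.76 ± 0.23 (adjusted p = 0.017), was lost without replicate B at 72 h (0.47) and without replicate B at 14 days (0.62). LMNA went the other way. It was at 629.9 and 536 CPM at 3 days and then at 395 and 352 CPM at 8 days, below both untreated libraries (-0.68 ± 0.17, adjusted p = 0.02). That was the only call of the 10 genes at 8 days, and it was lost when any 1 of the 4 libraries was left out (adjusted p from 0.0535 to 0.183). At 14 days LMNA was at 465 and 395 CPM, -0.48 ± 0.17 from untreated (adjusted p = 0.482) and -0.76 ± 0.17 from 72 h (adjusted p = 0.00238). EMD, SUN1 and SUN2 passed the test at no time in MYCN-high cells, with EMD between 12.3 and 20.5 CPM, SUN1 between 80.9 and 103 CPM and SUN2 between 8.31 and 17.2 CPM over its 10 libraries. With ERCC scaling LMNB2 at 3 days turned to 0.40, LMNA at 8 days to 0.45, and the rises of LMNB2, LBR and HMGB1 from 72 h to 14 days to -2.28, -1.28 and -0.27.

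**Figure D2:**
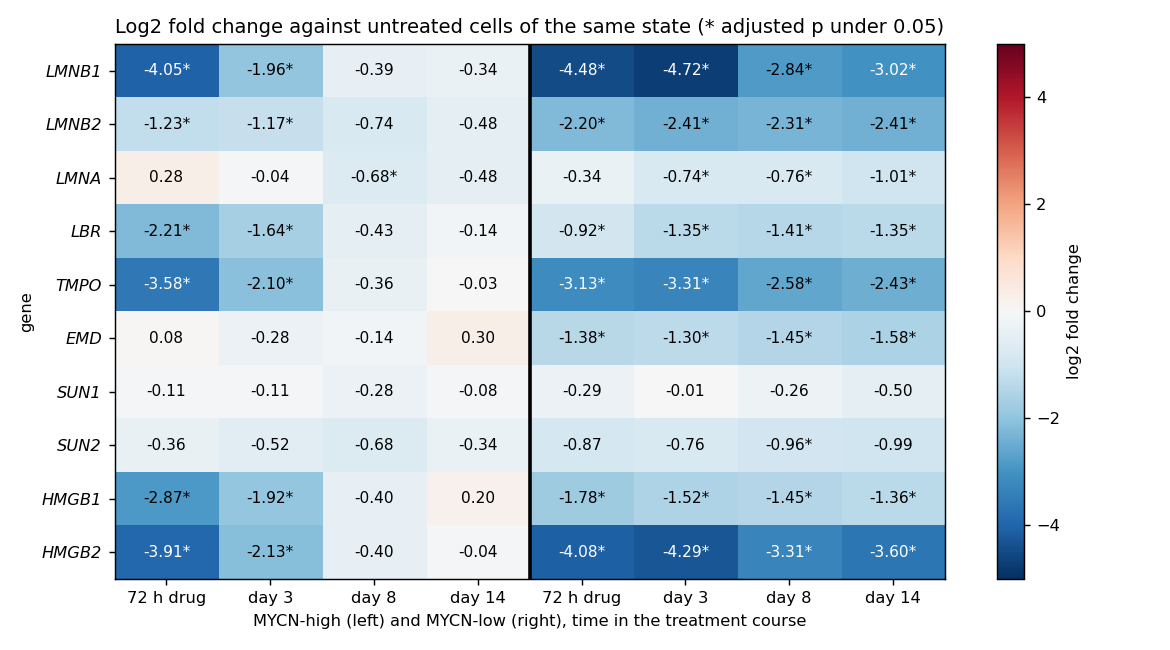
Log2 fold change of each gene against untreated cells of the same MYCN state, by time (columns: 72 h of drug, then 3, 8 and 14 days after washout), with MYCN-high cells on the left, MYCN-low cells on the right and an asterisk where edgeR's adjusted p was under 0.05. The left block fades from -4.05 for LMNB1 at 72 h to -0.34 at 14 days, and the right block stays at -3.02 for LMNB1 at 14 days. With ERCC scaling LMNB2 and LBR at 72 h, LMNB2 at 3 days and LMNA at 8 days in MYCN-high cells, and LMNA and SUN2 at 8 days in MYCN-low cells, change sign.

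In MYCN-low cells the transcripts stayed low after washout. At 3 days 8 of the 10 genes were below untreated cells, against 12.7% of all genes. At 8 days 9 of 10 were lower, against 14.6%, and at 14 days 8 of 10 were lower, against 10.7%, with none of the 10 higher at any of these times. Their median log2 fold change was -1.43, -1.45 and -1.47, beside 0.02, -0.02 and -0.05 over all genes. The day-14 comparison rests on 1 library, which the fit assumes to vary like the other groups. From 72 h to 14 days none of the 10 genes passed edgeR's adjusted threshold, where 3.14% of all genes did. At an unadjusted p under 0.05 that comparison held 3 of the 10 genes and 2321 of all genes, and DESeq2's Wald test called 800 genes, of the 10 LMNB1 alone.

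LMNB1 in MYCN-low cells was at 6.43 and 10.2 CPM at 3 days, 25.6 and 35.3 CPM at 8 days and 26.8 CPM at 14 days. The change from untreated was -4.72 ± 0.37 at 3 days (adjusted p = 4.96e-07), -2.84 ± 0.33 at 8 days (adjusted p = 3.51e-05) and -3.02 ± 0.45 at 14 days (adjusted p = 0.000481), the last at 12.3% of the untreated mean. The 14-day library lay above both 72 h libraries, by 1.46 ± 0.38 log2 units (adjusted p = 0.0517), and 4 of the 5 alternatives other than leaving out a library put that value past the threshold. HMGB2 was at 43.0 and 54.9 CPM at 3 days, 77.6 and 115 CPM at 8 days and 78.7 CPM at 14 days, -3.60 ± 0.57 from untreated (adjusted p = 0.000779). TMPO was at 34.7 and 50.6 CPM, then 61.9 and 79.0 CPM, then 78.5 CPM, and ended at -2.43 ± 0.37 (adjusted p = 0.000635). All post-washout libraries of these 3 genes lay below the untreated MYCN-low libraries.

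LMNB2, LBR and HMGB1 stayed at steady low levels after washout in MYCN-low cells. LMNB2 was at 88.2 and 110.1 CPM at 3 days, 91.1 and 122 at 8 days and 99.2 at 14 days, when it was -2.41 ± 0.31 from untreated (adjusted p = 0.000225). LBR was between 37.0 and 42.0 CPM in all 5 post-washout libraries and HMGB1 between 179 and 215 CPM, ending at -1.35 ± 0.22 and -1.36 ± 0.24. LMNA declined from 1076 and 999 CPM to 657 and 582 at 3 days, 644 and 584 at 8 days and 515 at 14 days. Its change was -0.74 ± 0.17 at 3 days (adjusted p = 0.00456, lost at 0.0516 without replicate C of day 3), -0.76 ± 0.17 at 8 days and -1.01 ± 0.21 at 14 days (adjusted p = 0.00444). EMD stayed between 10.3 and 12.7 CPM after washout, with changes of -1.30, -1.45 and -1.58. Without untreated replicate B these became -0.69, -0.84 and -0.98, and the first no longer passed (adjusted p = 0.0766). SUN2 passed only at 8 days (-0.96 ± 0.33, adjusted p = 0.0428), with 28.0 and 20.9 CPM, and its change was -0.35 without untreated replicate B. SUN1 was at 129 and 129 CPM at 3 days, 115 and 102 at 8 days and 91.8 at 14 days, the last at -0.50 ± 0.17 (adjusted p = 0.0534). With ERCC scaling LMNA and SUN2 at 8 days turned to 0.31 and 0.34.

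Before treatment the 2 states already differed in 7 of the 10 genes. LBR (1.20 ± 0.17, adjusted p = 0.000113), TMPO (0.86 ± 0.27, adjusted p = 0.0223) and HMGB1 (0.75 ± 0.18, adjusted p = 0.00495) were higher in MYCN-high cells, 3 of 10 against 16.5% of all genes. LMNA (-0.79 ± 0.17, adjusted p = 0.00201), EMD (-0.98 ± 0.29), SUN1 (-0.39 ± 0.14) and SUN2 (-1.54 ± 0.33, adjusted p = 0.00261) were lower, 4 of 10 against 18.6%. The libraries of the states did not overlap for any of the 7. How often this held over all genes was not counted, so it adds no support to the calls. LMNB1, at 0.80 ± 0.31 (adjusted p = 0.0551), did not pass, although its MYCN-high libraries lay above both MYCN-low ones. LMNB2 (-0.21 ± 0.23) and HMGB2 (0.12 ± 0.38) did not pass either. The count of 7 became 3 without MYCN-low replicate B or without MYCN-high replicate C, and 8 without MYCN-low replicate C. Without MYCN-low replicate B the differences were 0.54 for TMPO, -0.38 for EMD, -0.31 for SUN1 and -0.93 for SUN2, none of them called. Without untreated MYCN-high replicate B or C, SUN1 (-0.48 and -0.35) and EMD (-1.04 and -0.99) were not called either. TMPO (0.73) and HMGB1 (0.64) also lost their calls without untreated MYCN-high replicate C. SUN1 also lost its call without the filter on low counts (-0.37, edgeR adjusted p = 0.192). With ERCC scaling SUN1 turned to 0.37. Of the 7 listed mesenchymal markers 4 were lower in untreated MYCN-high cells. The sums of all 7 were 1825 to 3050 CPM over all MYCN-high libraries and 4629 to 14656 CPM over all MYCN-low libraries. FN1 alone had medians of 93.2 and 3402.5 CPM over the libraries of the 2 states. The medians of PRRX1 went the other way, at 234 CPM in MYCN-high and 189 CPM in MYCN-low libraries. Of the epithelial markers 2 of 3 tested were also lower in untreated MYCN-high cells, with sums of 512 and 316 CPM against 1702 and 983 CPM. The part of either list in the differences was not tested.

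At 72 h, 3 of the 10 genes differed between the states, near the 29.9% of all genes that did. LMNB1 (1.23 ± 0.33) and LMNB2 (0.75 ± 0.23) were higher in MYCN-high cells, 2 of 10 against 15.5% of all genes, and SUN2 (-1.04 ± 0.33) was lower, 1 of 10 against 14.4%. This count was 0 without MYCN-low replicate B and 1 without MYCN-low replicate C. LMNB1 fell to 0.44 and LMNB2 to 0.39 without the MYCN-high replicate C that stood apart, and SUN2 to -0.61 without replicate B. HMGB2, at 0.29 ± 0.39 and not called, was -0.96 without that replicate C and 0.95 without replicate B, past the threshold both times. With ERCC scaling SUN2 turned to 1.00. After washout the gap between the states widened. At 3 days LMNB1 (3.56 ± 0.35), LMNB2 (1.04 ± 0.23), LBR (0.90 ± 0.17), TMPO (2.07 ± 0.28) and HMGB2 (2.29 ± 0.41) were higher in MYCN-high cells, 5 of 10 against 17% of all genes. SUN1 (-0.49 ± 0.14) and SUN2 (-1.30 ± 0.34) were lower, 2 of 10 against 14.8%, and with ERCC scaling these turned to 1.35 and 0.55. At 8 days HMGB1 (1.81 ± 0.19) joined the higher genes, 6 of 10 against 23.4%. LMNA (-0.72 ± 0.17), SUN1 (-0.40 ± 0.14) and SUN2 (-1.26 ± 0.34) were lower, 3 of 10 against 20.5%, of which LMNA and SUN1 turned to 0.094 and 0.38 with ERCC scaling. At 14 days 6 of 10 were higher, against 21.4%, and none lower. HMGB2 (3.68 ± 0.58), LMNB1 (3.49 ± 0.46), TMPO (3.26 ± 0.39), LBR (2.42 ± 0.23), HMGB1 (2.32 ± 0.25) and LMNB2 (1.72 ± 0.30) made up the 6.

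The difference between the states in the response to the drug was tested as an interaction, in which a positive value means a smaller fall in MYCN-high cells. At 72 h EMD was positive (1.46 ± 0.41, adjusted p = 0.0333), 1 of 10 against 6.63% of all genes, while LBR (-1.29 ± 0.24, adjusted p = 0.00567) and HMGB1 (-1.09 ± 0.26, adjusted p = 0.017) fell further in MYCN-high cells, 2 of 10 against 4.06%. Leaving out 1 library gave 1 to 5 calls. It gave 1 without MYCN-high untreated replicate C or MYCN-low 72 h replicate C, and 5 without MYCN-low untreated replicate C. LBR kept its call in all 8 such fits, EMD lost it in 6 and HMGB1 in 2, and with ERCC scaling LBR turned to 0.60 and HMGB1 to 0.78. LMNB1 (0.43 ± 0.45), TMPO (-0.45 ± 0.38) and HMGB2 (0.17 ± 0.55) showed no called difference between the states at 72 h, and without MYCN-high 72 h replicate C the values of LMNB1 and HMGB2 were -0.34 and -1.06, neither of them called.

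After washout the calls were all positive. At 3 days LMNB1 (2.76 ± 0.45, adjusted p = 0.00246), LMNB2 (1.25 ± 0.32, adjusted p = 0.0296) and HMGB2 (2.16 ± 0.55, adjusted p = 0.0286) passed, 3 of 10 against 5.1% of all genes. The count was 1, LMNB1 alone, without MYCN-high untreated replicate B or C, MYCN-low day-3 replicate B or MYCN-high day-3 replicate C, and 6 without MYCN-low untreated replicate C. At 8 days 6 of 10 passed, against 4.41%. They were HMGB2 (2.91 ± 0.55), LMNB1 (2.44 ± 0.44), TMPO (2.22 ± 0.39), LMNB2 (1.56 ± 0.32), HMGB1 (1.05 ± 0.26) and LBR (0.98 ± 0.23). This count was 3 without MYCN-high untreated replicate B or C or MYCN-high day-8 replicate C, and 2 without MYCN-low day-8 replicate B. LMNB1 and TMPO kept their calls in all 8 fits. LMNB2, HMGB1 and LBR each lost theirs in several, and HMGB2 without MYCN-low day-8 replicate B. At 14 days 7 of 10 passed, against 4.87%: HMGB2 (3.56 ± 0.66, adjusted p = 0.00643), LMNB1 (2.69 ± 0.52, adjusted p = 0.00792), TMPO (2.4 ± 0.45), LMNB2 (1.93 ± 0.37), EMD (1.88 ± 0.47), HMGB1 (1.57 ± 0.29) and LBR (1.22 ± 0.27). Leaving out 1 library gave 5 to 7. The only MYCN-low library of 14 days was in all of these fits. EMD lost its call there without either untreated or either 14-day MYCN-high library, and LBR without untreated MYCN-high replicate C. With ERCC scaling none of the 10 genes passed at any of the 4 times. At 14 days that scaling gave 2.08 for HMGB2, 1.27 for LMNB1, 1.09 for TMPO, 0.34 for LMNB2, 0.20 for HMGB1, 0.11 for EMD and -0.18 for LBR. LMNA, SUN1 and SUN2 passed at none of the 4 times.

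**Figure D3:**
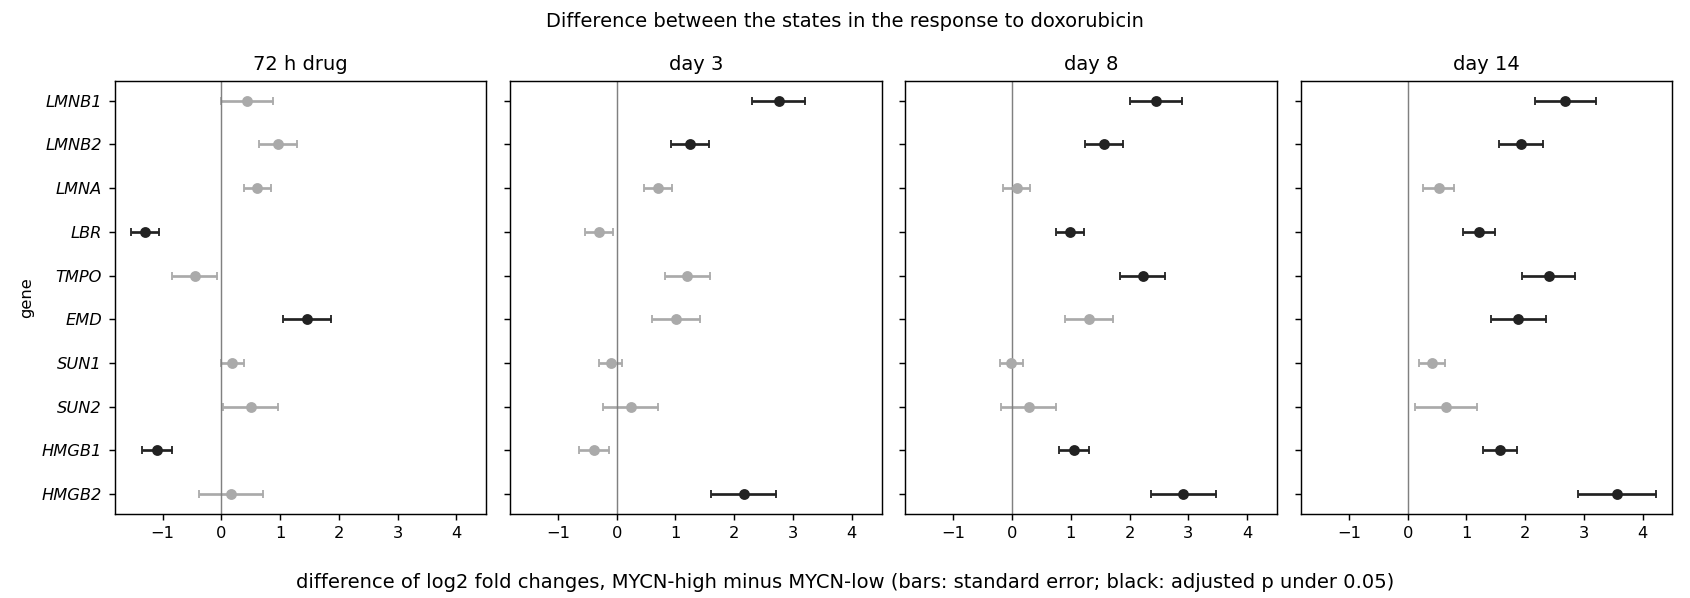
Difference between the log2 fold changes of the 2 states against untreated cells (MYCN-high minus MYCN-low, x axis) for each gene at each treated time, with standard errors as bars and adjusted p under 0.05 in black. At 72 h LBR and HMGB1 lie to the left at -1.29 and -1.09, and by 14 days 7 genes lie to the right, up to 3.56 for HMGB2. With ERCC scaling LBR and HMGB1 at 72 h and LBR at 14 days change sign.

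Ratios of counts within a library do not depend on scaling. They are ratios of reads and not of molecules, so they are compared only for the same pair of genes. The LMNB1 to LMNA count ratio was 0.619 and 0.649 in untreated MYCN-high cells, 0.0189 and 0.0436 at 72 h, and 0.148 and 0.190 at 3 days. At 8 days it was 0.655 and 0.906 and at 14 days 0.658 and 0.746, above both untreated values. In MYCN-low cells that ratio was 0.173 and 0.249 untreated and 0.00965 and 0.0146 at 72 h. It stood at 0.00978 and 0.0175 at 3 days, 0.0397 and 0.0604 at 8 days and 0.0520 at 14 days, below both untreated values throughout. LMNB2 to LMNA moved likewise, from 0.748 and 0.777 to 0.215 and 0.316 at 72 h and 0.766 and 0.758 at 14 days in MYCN-high cells. In MYCN-low cells it went from 0.586 and 0.426 to 0.130 and 0.153 at 72 h and 0.193 at 14 days.

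Between the HMGB genes, HMGB2 lost the larger share of its reads. The HMGB2 to HMGB1 count ratio was 1.15 and 1.08 in untreated MYCN-high cells, 0.248 and 0.785 at 72 h, 0.855 and 1.06 at 3 days, 1.25 and 0.998 at 8 days and 0.943 and 0.938 at 14 days. In MYCN-low cells it was 2.05 and 1.51 untreated, 0.361 and 0.339 at 72 h, 0.241 and 0.266 at 3 days, 0.400 and 0.547 at 8 days and 0.366 at 14 days. All treated libraries of MYCN-low cells lay below their untreated pair. LBR to LMNA was 0.378 and 0.402 in untreated MYCN-high cells and 0.0690 and 0.0694 at 72 h, against 0.0796 and 0.117 untreated and 0.0596 and 0.0723 at 72 h in MYCN-low cells.

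**Figure D4:**
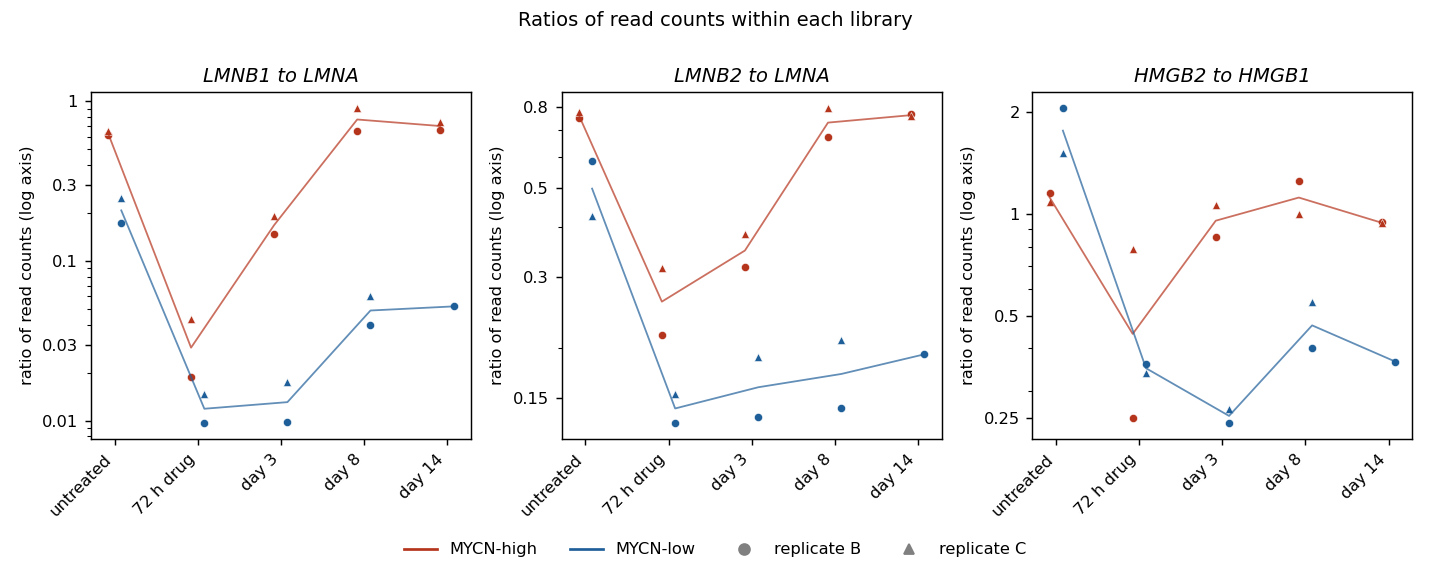
Ratio of read counts within each library for LMNB1 to LMNA, LMNB2 to LMNA and HMGB2 to HMGB1 (log axes), across the treatment course in both MYCN states, with lines through geometric means. Both lamin ratios fall at 72 h in both states, and by 14 days LMNB1 to LMNA is back at 0.658 and 0.746 in MYCN-high cells and at 0.0520 in MYCN-low cells.

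Genes of cell division moved with the falling genes. All 20 listed genes of G2 and mitosis and all 15 of DNA replication fell at 72 h in MYCN-high cells, with median log2 fold changes of -3.87 and -2.98. At 14 days none of either list was called there. In MYCN-low cells 20 and 14 fell at 72 h (medians -6.61 and -3.30), and 20 and 14 were still lower at 14 days (-3.12 and -2.13). From 72 h to 14 days in MYCN-low cells 19 of the 20 mitosis genes rose, with a median of 3.52, while of the 10 genes none passed in that same comparison. LMNB1, TMPO and HMGB2 gained 1.46, 0.70 and 0.48 there, with LMNB1 close to the threshold, and LMNB2 -0.21. The mitosis genes rose from very low levels, with sums of 57.6 and 83.8 CPM at 72 h and 869 CPM at 14 days in MYCN-low cells. Untreated MYCN-low cells held 6227 and 7244 CPM of them. Whether fewer dividing cells account for the falls of the 10 genes was not tested. The classical senescence genes CDKN1A, a cell cycle inhibitor, and GDF15, a stress cytokine, rose by 5.59 ± 0.40 and 6.86 ± 0.75 at 72 h in MYCN-high cells and by 4.15 ± 0.37 and 5.07 ± 0.68 in MYCN-low cells. Of 13 tested senescence genes 8 rose in MYCN-high and 7 in MYCN-low cells, where 18.3% and 10.2% of all genes were higher. At 14 days 0 and 9 were higher, against 0% and 7.63% of all genes. CDKN2A, the locus of the inhibitor p16, had no read in any library, and is named here because of that value.

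**Figure D5:**
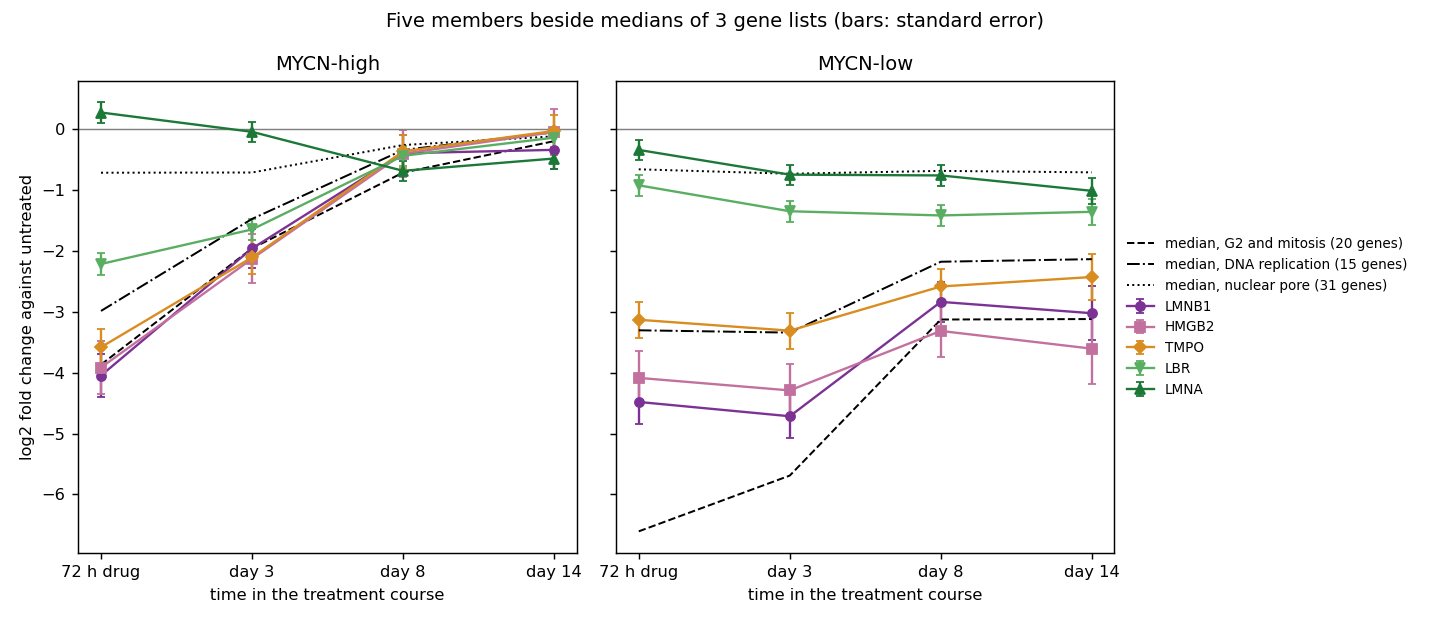
Log2 fold change against untreated cells for LMNB1, HMGB2, TMPO, LBR and LMNA (symbols with standard errors) and the medians of 3 gene lists (dashed and dotted lines) at 72 h and at 3, 8 and 14 days after washout. In MYCN-high cells the mitosis list runs from -3.87 to near 0 along with LMNB1, and in MYCN-low cells it runs from -6.61 at 72 h to -3.12 at 14 days. With ERCC scaling LBR at 72 h and LMNA at 8 days in MYCN-high cells, and LMNA at 8 days in MYCN-low cells, change sign.

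Genes of other parts of the nuclear envelope fell in part. Of 31 tested nuclear pore genes 24 fell at 72 h in MYCN-high cells and 18 in MYCN-low cells, with medians of -0.71 and -0.66. Examples were NUP107, a scaffold nucleoporin (-1.81 ± 0.19 and -1.35 ± 0.19), and NUP155, an inner ring nucleoporin (-1.48 ± 0.18 and -1.44 ± 0.18). None of the pore genes was called at 14 days in MYCN-high cells, and 17 were lower in MYCN-low cells. Of 23 other tested envelope genes 6 fell in each state at 72 h and none rose, with medians of -0.20 and -0.25, where 17.9% and 12.1% of all genes were lower. Among them were TMEM194A, an inner membrane protein (-1.85 ± 0.22 and -1.80 ± 0.22), and SYNE2, the nesprin-2 partner of the SUN proteins (-2.41 ± 0.33 and -1.01 ± 0.31). Of the 6 tested genes of lamin processing, ICMT, which methylates the lamin tail, was the 1 that fell (-0.77 ± 0.17 and -0.79 ± 0.17).

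Further chromatin genes followed in part. Of 11 other high-mobility-group and related genes 6 fell and 2 rose at 72 h in MYCN-high cells, and 7 fell and 1 rose in MYCN-low cells. HMGB3, the paralog of HMGB1 and HMGB2, changed by -2.62 ± 0.23 and -1.64 ± 0.23 log2 units. HMGN2, a nucleosome-binding protein, changed by -2.09 ± 0.20 and -1.18 ± 0.19. Of 11 genes of heterochromatin at the lamina 5 and 4 fell and none rose. SUV39H1, a histone H3 lysine methyltransferase, changed by -2.19 ± 0.30 and -3.61 ± 0.33, and CBX5, which encodes HP1 alpha and whose protein binds LBR, by -1.16 ± 0.16 and -1.44 ± 0.16. Of 4 tested genes for receptors and partners of HMGB1, TLR4 rose in both states (1.55 ± 0.22 and 1.56 ± 0.22). CD24 fell in MYCN-high cells (-2.16 ± 0.71), SDC1 rose in MYCN-low cells (0.95 ± 0.23), and AGER was called in neither state. Of all genes 18.3% and 10.2% were higher and 17.9% and 12.1% lower at 72 h in MYCN-high and MYCN-low cells. Among the 4 structured RNAs that were counted, 3 rose at 72 h in MYCN-high cells (median 1.03) and 1 fell in MYCN-low cells (median -0.48). Their part in any result was not tested.

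Across the 10 group means, likeness was measured as the root mean square gap between centred log2 CPM profiles, among 10426 genes with a mean of at least 5 CPM. Nearest to LMNB1 were MND1 (0.22), NEIL3 (0.24), ARHGAP11A (0.26), FANCI (0.26) and POLE2 (0.31). Nearest to HMGB2 were NEIL3 (0.28), HIST1H2AM (0.30), BORA (0.31), FBXO5 (0.34) and STMN1 (0.34). LMNA, whose profile was flatter, lay nearest to KAZN (0.14), PCSK7 (0.16), ELOVL1 (0.16), CSTB (0.16) and CANT1 (0.17). Among the 10 genes themselves LMNA and SUN1 were the closest pair (0.30), followed by TMPO with HMGB2 (0.34) and LBR with HMGB1 (0.37), while LMNB1 lay 2.20 from LMNA and 2.34 from SUN2. These gaps describe the 10 group means and carry no test.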

How the data were processed

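RNA-seq libraries were made with rRNA depletion and ERCC spike-in RNAs, per the labels' protocols, although the labels' molecule entry reads polyA RNA. The submitters' processing notes name the aligner STAR 2.4.0h1, the counter HTSeq and the build hg19. The annotation and strand setting are not given in the sources used here. The authors deposited raw counts per gene symbol for all 19 libraries, with 92 ERCC rows, which were left out of library sizes.

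Total gene counts were 16530112 to 27638012 per library. A coefficient per group was fitted to all 19 libraries with edgeR 4.0.16 (R 4.3.3; TMM scaling, filterByExpr, quasi-likelihood test, 9 residual degrees of freedom). Adjusted p-values are Benjamini-Hochberg values over 14793 genes with a threshold of 0.05, in 19 contrasts. Levels are TMM-scaled CPM computed from the counts, and standard errors are the log2 fold change over the square root of F. The fit was checked on simulated counts.

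Alternatives were DESeq2 1.42.0 size factors within edgeR, DESeq2's Wald test, no filter, scaling to ERCC counts, the replicate letter as a block, and fits with 1 library left out. The genes and lists were chosen with earlier results of these data known. By rule, all 10 genes were named, along with up to 3 genes per list with the smallest p at 72 h in each state, and the 5 genes with profiles nearest to LMNB1, HMGB2 and LMNA. Promoter windows came from RefSeq on GRCh38.p14 and were not used with the counts. Figures were drawn with matplotlib 3.10.9.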

Additional observations from a re-analysis of the deposited data

Results flagged for a closer look

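The response to the drug differed between the MYCN states, by the test of the difference itself in edgeR, for 19 combinations of gene and time. Values are the log2 fold change against untreated cells in MYCN-high minus that in MYCN-low cells. At 72 h they were -1.29 for LBR, -1.09 for HMGB1 and 1.46 for EMD. With ERCC scaling the values of LBR and HMGB1 turned positive, and EMD was 0.86 without untreated MYCN-low replicate B. At 3 days they were 2.76 for LMNB1, 1.25 for LMNB2 and 2.16 for HMGB2. LMNB2 and HMGB2 each lost that call in several fits that left out 1 library, at values of 0.93 to 1.33 and 1.93 to 2.37.

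At 8 days the values were 2.44 for LMNB1, 1.56 for LMNB2, 0.98 for LBR, 2.22 for TMPO, 1.05 for HMGB1 and 2.91 for HMGB2. HMGB1 was 0.69 without untreated MYCN-low replicate C. It lost its call in other fits that left out 1 library, at values of 0.95 to 1.12, as did LBR at 0.92 to 1.01. At 14 days they were 2.69 for LMNB1, 1.93 for LMNB2, 1.22 for LBR, 2.4 for TMPO, 1.88 for EMD, 1.57 for HMGB1 and 3.56 for HMGB2. With ERCC scaling none of the 19 values was called. At 14 days LBR then turned to -0.18, and EMD was 0.11, HMGB1 0.20, LMNB2 0.34, TMPO 1.09, LMNB1 1.27 and HMGB2 2.08. EMD at 14 days was 1.28 without untreated MYCN-low replicate B. It lost its call without either untreated or either 14-day MYCN-high library, at values of 1.83 to 1.89. All 4 times share the untreated libraries of their state, so these values are not independent of each other.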

How the results depend on the processing

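Of 190 gene and comparison values of the 10 genes, 103 were called. DESeq2's Wald test kept 103 of these calls, DESeq2 size factors 102, no filter 101 and the replicate block 103, with no change of direction. The only MYCN-low library of 14 days could not be left out of its own comparisons, which the next count includes. Of the 103, 76 kept their call whichever library was left out.

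ERCC scaling kept 1 call, lost 84 and turned 18. All comparisons then had 0 of the 10 genes called, except 1 from 72 h to 14 days in MYCN-high cells. The turned values were, against untreated, LMNB2 0.80 and LBR 0.092 at 72 h, LMNB2 0.40 at 3 days and LMNA 0.45 at 8 days in MYCN-high cells, and LMNA 0.31 and SUN2 0.34 at 8 days in MYCN-low cells. From 72 h to 14 days in MYCN-high cells they were LMNB2 -2.28, LBR -1.28 and HMGB1 -0.27. Between the states they were SUN1 0.37 untreated, SUN2 1.00 at 72 h, SUN1 1.35 and SUN2 0.55 at 3 days, and LMNA 0.094 and SUN1 0.38 at 8 days. For the difference in response they were LBR 0.60 and HMGB1 0.78 at 72 h and LBR -0.18 at 14 days. The spike-in share ranged 46.4-fold over libraries. It also differed within pairs, at 0.0116% and 0.191% in replicates B and C of MYCN-high cells at 72 h. The cause was not tested.

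Counts of called genes moved by over 1.5 times in 3 further comparisons. MYCN-high cells at 8 days had 1, and 2 with DESeq2 size factors, 3 with the Wald test, 3 without the filter and 2 with the replicate block. MYCN-low cells from 72 h to 14 days had 0, and 1, 1, 2 and 3 in that order. The difference in response at 3 days had 3, and 5 with the Wald test and 5 with the replicate block. Whether the letters B and C mark a shared batch is not given in the labels. Over 36 pairs of groups, deviations of B from C correlated from -0.21 to 0.32, with a median of 0.11 and 22 of 36 over 0.1. The cause of these moves was not tested.

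Leaving out each library in turn gave, against untreated in MYCN-high cells at 72 h, 3, 8 and 14 days, 6 to 6, 6 to 6, 0 to 0 and 0 to 0 called genes. In MYCN-low cells it gave 7 to 8, 7 to 9, 8 to 9 and 8 to 10. From 72 h to 14 days it gave 6 to 7 in MYCN-high and 0 to 0 in MYCN-low cells. Between the states it gave 3 to 8 untreated, then 0 to 3, 5 to 7, 7 to 9 and 6 to 6. For the difference in response it gave 1 to 5, 1 to 6, 2 to 7 and 5 to 7. HMGB2 between the states at 72 h, 0.29 and not called, became -0.96 without MYCN-high replicate C and 0.95 without MYCN-high replicate B, past the threshold in both cases. Pairs of libraries, and 1 library in MYCN-low cells at 14 days, limit precision. The ranges for comparisons with that 14-day library come only from fits that kept it. The lowest count of any of the 10 genes was 142 reads, for LMNB1.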
